A study of Homo sapiens with 33 samples.

Results

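The cyclin-dependent kinase (CDK) inhibitors and the retinoblastoma (RB) family, together with the antiproliferative BTG genes, were followed in the human monocytic leukaemia line THP-1. Members were a named set of 10 genes, matched by gene symbol. Probe sets named for 8 of the 10 were present in the table used: CDKN1A, CDKN1B and CDKN1C of the CIP/KIP family, CDKN2D of the INK4 family, the pocket proteins RB1, RBL1 and RBL2, and BTG1. The other 2 genes are not analysed here. The 8 genes, of 19775 genes on the array, were measured by 20 probe sets, and 13 of these 20 passed the filter on low values in each experiment, with at least 1 for each gene.

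The data were 33 Affymetrix arrays (HG-U133 Plus 2), 1 per culture well. In experiment 1, all wells were harvested at 40 h: 6 received vehicle (0.1% ethanol), 5 all-trans retinoic acid (RA, 20 nM, given at the start and again at 16 h), 5 tumor necrosis factor (TNF, 5 ng per ml, for 24 h), and 5 RA as above with TNF added for the last 24 h. In experiment 2, RA alone was given for 2 h (2 wells), 6 h (2 wells), 16 h (3 wells) or 40 h (2 wells), and the reference was 8 vehicle wells, 5 harvested at 16 h and 3 at 40 h. The 2 RA wells and 3 vehicle wells at 40 h served in both experiments, so their results are not independent. All groups are the same leukaemia line, and no untransformed monocytes were measured.

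CDK inhibitors hold the cell in G1. CIP/KIP proteins bind cyclin and CDK complexes, INK4 proteins bind CDK4 and CDK6, and with these kinases inhibited RB1, RBL1 and RBL2 stay unphosphorylated and repress genes driven by E2F factors. BTG proteins slow proliferation partly by recruiting the CCR4-NOT deadenylase to messenger RNAs. In myeloid leukaemia cells, retinoic acid is known to slow division and to promote maturation, and CDKN1A is a known gene of that response.

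The values are log2 signals relative to the median probe set of the same array, so 0 is the array median and 1 unit is a doubling of the linear signal. A probe set was called at a Benjamini-Hochberg adjusted p under 0.05 in a limma fit over all tested probe sets (22749 in experiment 1, 22961 in experiment 2). The wells are labelled as biological replicates, and the p-values measure the spread between such wells of 1 line. Array record numbers in the labels form 2 runs, array set 1 (12 arrays) and array set 2 (21 arrays). Both runs hold arrays of each experiment 1 group, and all of experiment 2 is in set 2. The log2 difference between the 3′ and 5′ probe sets of ACTB, a sign of RNA or labelling quality, was 1.31 ± 0.33 (SD) in set 1 and 0.51 ± 0.28 in set 2, so experiment 1 was fitted with the set as a covariate. The treatment labels held in the data: RA alone raised DHRS3 by 4.25 ± 0.30 (SE) and TNF alone raised TNFAIP3 by 3.69 ± 0.17. Of 8 monocytic markers found, CEBPA, LYZ, ITGAM, CSF1R and SPI1 had mean signals from 503 to 4764 units on the scanner software's scale and CD14 had 289, whereas MPO (31.7 units) and FCGR1A (22.2 units) lay near the array medians of 18.9 to 45.2 units. Markers of other cell types had median signals of 20.1 units (lymphocytes), 22.5 (red cells and platelets) and 20.2 (epithelium and fibroblasts). CD3D, CD3E and CD3G of the lymphocyte list lay at or below 21.3 units, but CD79A lay at 73.7 units, and NKG7 lay at 237 units and rose by 1.09 with TNF. Of the other lists, HBB (46.0 units), KRT8 (58.8 units) and COL1A1 (79.8 units) also lay above all array medians.

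Promoters are shown for CDKN1A and BTG1, the members with the largest called rises, and for RBL1, itself known as an E2F target. The stretches below are the bases upstream of the start used for each gene, from RefSeq (GRCh38.p14), 5′ to 3′ along the gene. For CDKN1A this start lies inside the gene span of chr6:36676463-36687332, so bases further upstream in that span were not searched. CDKN1A is 250 bases at chr6:36678464-36678713 on the plus strand, BTG1 is 250 bases at chr12:92145847-92146096 on the minus strand, and RBL1 is 60 bases at chr20:37095998-37096057 on the minus strand. Capitals mark GC boxes (GGGCGG) in CDKN1A. In BTG1 they mark, in order, a forkhead site (GTAAACA) on the other strand, a GC box on the other strand and a TATA box (TATAAA). In RBL1 they mark the E2F sites TTTCGCGC and TTTGGCGC.
CDKN1A: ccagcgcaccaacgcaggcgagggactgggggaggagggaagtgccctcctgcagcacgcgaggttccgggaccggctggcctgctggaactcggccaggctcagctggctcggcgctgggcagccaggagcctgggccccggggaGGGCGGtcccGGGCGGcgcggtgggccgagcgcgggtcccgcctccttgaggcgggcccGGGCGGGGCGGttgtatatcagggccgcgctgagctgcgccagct
BTG1: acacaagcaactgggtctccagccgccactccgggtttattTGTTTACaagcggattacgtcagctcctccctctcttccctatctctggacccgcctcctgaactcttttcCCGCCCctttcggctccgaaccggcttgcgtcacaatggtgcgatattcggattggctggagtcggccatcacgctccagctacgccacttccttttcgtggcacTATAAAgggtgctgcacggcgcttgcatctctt
RBL1: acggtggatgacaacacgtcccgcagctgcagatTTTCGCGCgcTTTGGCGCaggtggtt
The 4 GC boxes of CDKN1A lie between 104 and 35 bases before the start, and the last 2 overlap by 1 base. The BTG1 TATA box lies 33 to 28 bases before its start. Of 35116 promoter windows in the same table, searched on both strands from 250 bases before to 50 after the start, 45.0% held a GC box, 11.5% TATAAA, 3.42% GTAAACA, 0.515% TTTCGCGC and 0.652% TTTGGCGC. These are letter matches only. A retinoic acid DR5 repeat (0.0883% of windows) and an NF-kB consensus (11.3%) were also searched, and their letters were not found in the CDKN1A, CDKN1B, CDKN2D, RBL1, RBL2 and BTG1 windows.

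CDKN1A, which encodes the CDK inhibitor p21, rose with RA alone at 40 h and with RA plus TNF at 40 h, and it also rose at 6 h of RA. The 6 h group had the highest mean relative to the array median (4.81), whereas in signal units the highest was RA plus TNF (761 units, against 618 at 6 h). It lies at chr6:36676463-36687332 and was read by probe set 202284_s_at. On vehicle arrays at 40 h the level ran from 3.07 through a median of 3.45 to 3.72. The 5 RA arrays read 3.64, 3.91, 3.73, 4.61 and 4.49. The lowest RA array lay inside the vehicle range, and the other 4 lay above all 6 vehicle arrays. The log2 change was 0.64 ± 0.17 (SE, 95% confidence interval 0.28 to 0.99), a 1.56-fold rise, with a limma adjusted p of 0.0315. CDKN1A was the 1 member probe set of 13 called for RA at 40 h, and 3.28% of all tested probe sets were called there. The median change of the 13 member probe sets was 0.25, and that of all tested probe sets was 0.02. The measurement is of bulk RNA, in which more cells with the transcript and more transcript per cell cannot be told apart.

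The CDKN1A response to RA alone was not equal in the array sets. It was 0.47 (adjusted p 0.602) in set 1 and 0.92 (adjusted p 0.00762) in set 2, and the 2 highest RA arrays are both of set 2. The call was lost without vehicle replicate 2 (0.58, adjusted p 0.0714) or 4 (0.61, 0.0688) and without RA replicate 4 (0.53, 0.168) or 5 (0.56, 0.106). It was also lost without the set covariate (0.61, 0.250) or the intensity trend (0.64, 0.0806).

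TNF alone left CDKN1A at 3.72, 3.38, 3.90, 3.51 and 3.68, largely inside the vehicle range. The change was 0.20 ± 0.17 (interval -0.15 to 0.56), which did not pass the test (adjusted p 0.582). With RA and TNF together the 5 arrays read 5.07, 4.44, 4.28, 4.46 and 4.63. All 5 lay above every vehicle array and every TNF array. The rise over vehicle was 1.14 ± 0.17, or 2.20-fold (limma adjusted p 7.36e-06), with 1.31 in set 1 and 0.91 in set 2. The rise over TNF alone was 0.94 ± 0.18, or 1.92-fold (adjusted p 0.000649), with 0.93 in set 1 and 0.95 in set 2. Both calls were kept without any 1 of the 21 arrays.

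Whether TNF adds to the RA response of CDKN1A was not settled by these arrays. RA plus TNF exceeded RA alone by 0.50 ± 0.18 (interval 0.13 to 0.87), with an adjusted p of 0.0756. In set 1 the difference was 0.84 (adjusted p 0.0299), and in set 2 it was -0.00 (0.997). The interaction, in which the RA change without TNF is subtracted from that with TNF, was 0.30 ± 0.25 (interval -0.21 to 0.81, adjusted p 0.871). In the order of the 40 h means, vehicle (3.46) and TNF (3.64) did not differ in the test, RA (4.08) exceeded vehicle, and RA plus TNF (4.58) did not pass against RA. RA alone and TNF alone were not compared with each other.

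**Figure D1:**
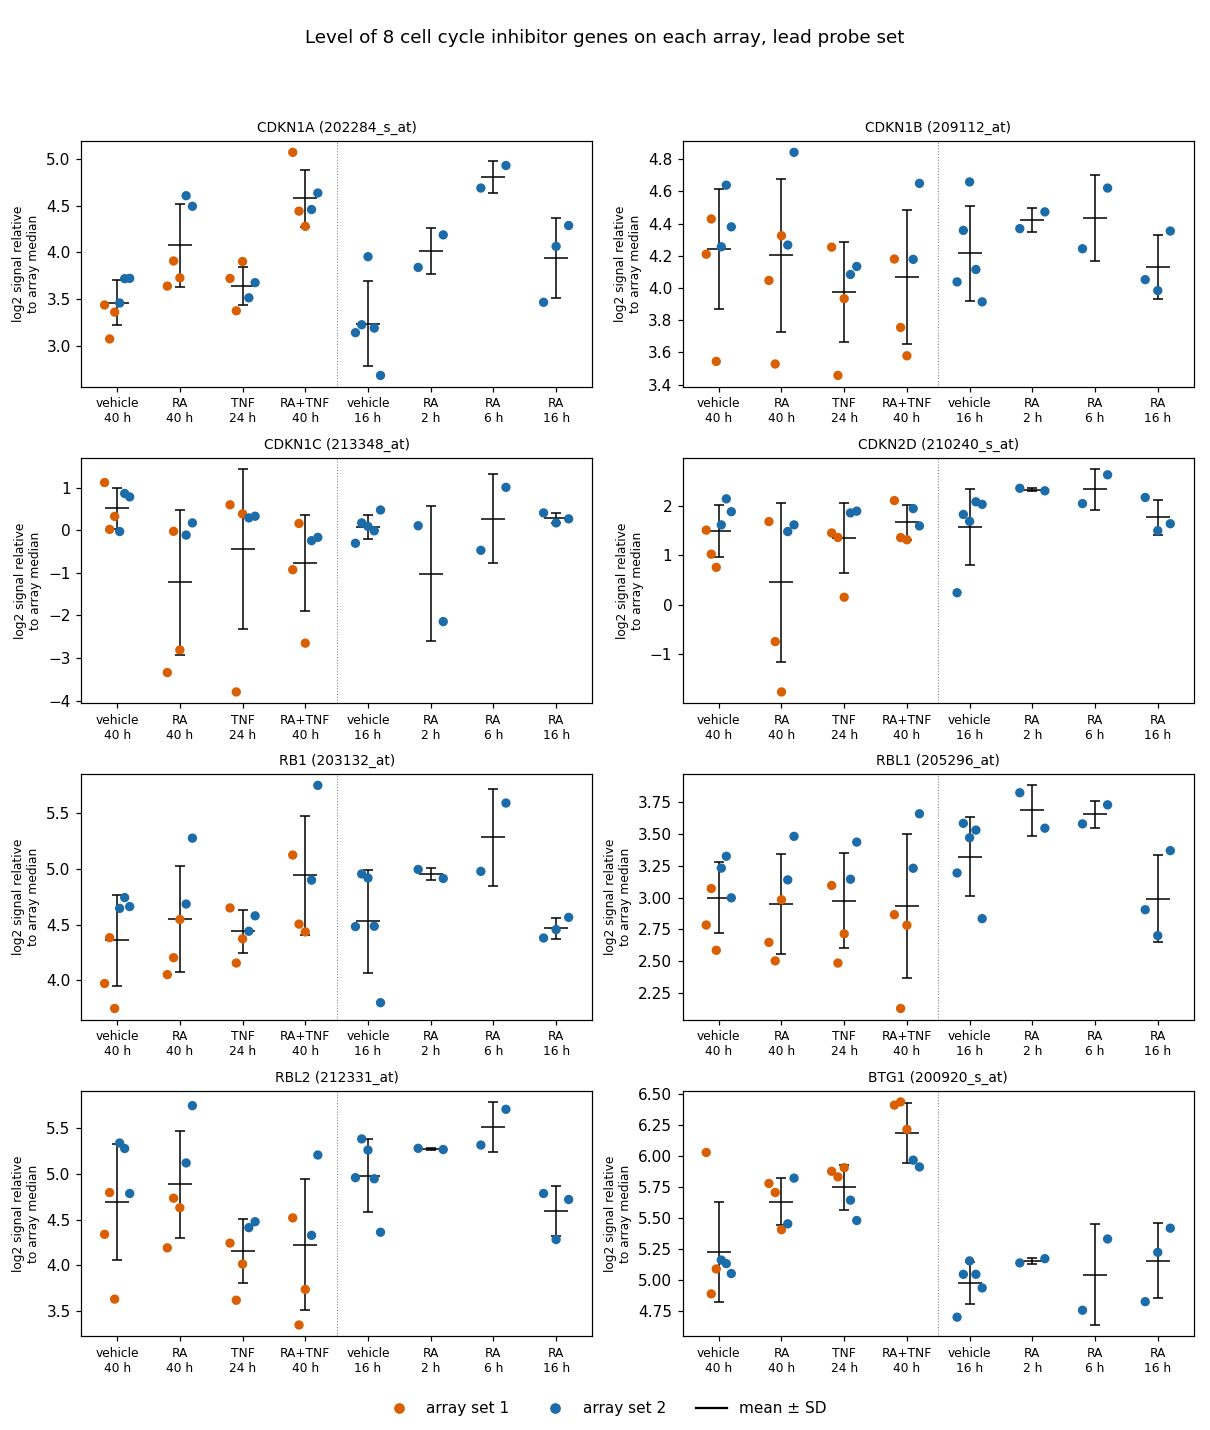
Log2 signal relative to the array median for the lead probe set of each of the 8 genes, 1 point per array, in the 8 groups, with orange for array set 1, blue for array set 2, and the mean ± SD in black. CDKN1A on the RA plus TNF arrays lay between 4.28 and 5.07, above all vehicle arrays at 40 h (3.07 to 3.72), while the CDKN1B groups overlap.

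In the RA time course CDKN1A was already high at 6 h relative to the vehicle wells, which were harvested at 16 h and 40 h. No vehicle well was harvested at 2 h or 6 h, so RA and harvest time cannot be told apart there. The 8 vehicle arrays ran from 2.68 through 3.34 to 3.95. The 2 h arrays read 3.84 and 4.19, the 6 h arrays 4.69 and 4.93, the 16 h arrays 3.47, 4.06 and 4.29, and the 40 h arrays 4.61 and 4.49. The 6 h and 40 h arrays lay wholly above the vehicle arrays, and those at 2 h and 16 h overlapped them. The change at 6 h was 1.42 ± 0.25, or 2.68-fold (limma adjusted p 0.000635), and CDKN1A was the 1 of 13 member probe sets called, against 6.00% of all. The change at 40 h was 1.16 ± 0.25, or 2.24-fold (adjusted p 0.00477), again 1 of 13, against 3.95% of all. At 2 h it was 0.63 ± 0.25 (adjusted p 0.228), and 0 of 13 member probe sets were called by limma, against 0.645% of all. At 16 h it was 0.55 ± 0.22 (adjusted p 0.144), and again 0 of 13 were called, against 5.32% of all. At an unadjusted p under 0.05 the counts were 2 of 13 at 2 h and 4 of 13 at 16 h. Over all 22961 tested probe sets they were 4231 and 4630.

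Part of the early profile moved with the centring of the arrays. The median change of all tested probe sets was 0.34 and 0.39 for the 2 h and 6 h arrays, and -0.17 and 0.15 for the 16 h and 40 h arrays, and on the scanner software's own scale it lay within 0.03 of 0 at each time. Rises made up 98.0% of all calls at 6 h as deposited and 68.5% on that scale. Relative to the median of all probe sets CDKN1A changed by 0.29, 1.03, 0.72 and 1.02 at the 4 times. On the software's scale the 6 h rise was 1.01 (adjusted p 0.00938), the 40 h rise 1.00 (0.00478), and the 16 h value, now called, 0.70 (0.0221). The 16 h call was also made after quantile normalization (0.72, 0.0190) and after centring on the tested probe sets (0.72, 0.0197). The array median signal was 23.2 ± 1.6 units (SD) at 2 h and 22.2 ± 4.7 at 6 h against 29.4 ± 3.5 on the vehicle arrays, and the ACTB difference was 0.22 ± 0.11 and 0.21 ± 0.12 against 0.54 ± 0.31. Their part in the changes was not tested. The 6 h call of CDKN1A was lost without replicate 2 at 6 h (1.30, 0.0846), and the 40 h call without RA replicate 4 (1.11, 0.0987) or 5 (1.22, 0.0843), in fits where the lone array is assumed to vary like the other groups.

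**Figure D2:**
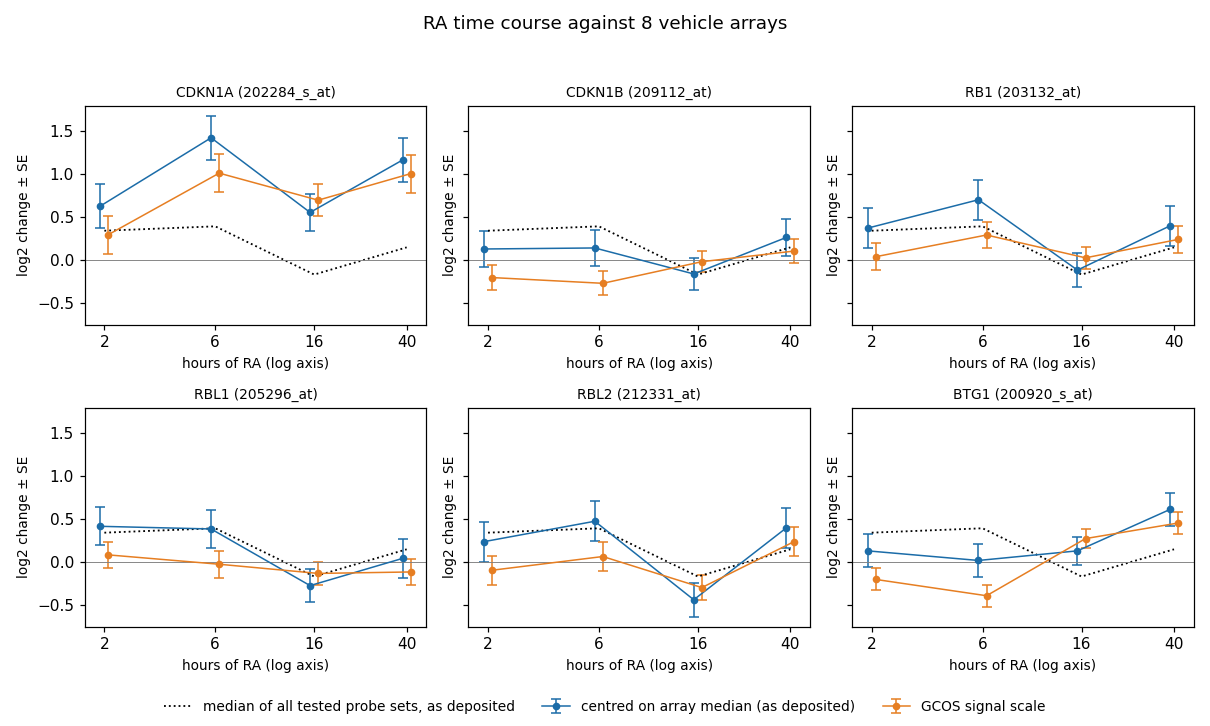
Log2 change ± SE against the 8 vehicle arrays for 6 genes by hours of RA (log axis), on the deposited scale (blue) and on the scanner software's scale (orange), with the median of all tested probe sets on the deposited scale dotted. CDKN1A lies above the dotted line at 6 h (1.42 against 0.39) and 40 h (1.16 against 0.15), while RBL1 stays near it at 2 h, 6 h and 16 h.

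CDKN1B, which encodes p27, a CDK inhibitor that typically accumulates in resting cells, did not pass in any of the 10 comparisons. It lies at chr12:12717368-12722369, and probe set 209112_at gave group means from 3.97 with TNF to 4.43 at 6 h of RA relative to the array median. In signal units the 6 h mean was the lowest (475 units) and that of vehicle at 40 h the highest (629 units). At 40 h, vehicle arrays ran from 3.54 through 4.32 to 4.64. RA arrays read 4.05, 3.53, 4.33, 4.27 and 4.84, TNF arrays 4.25, 3.46, 3.93, 4.08 and 4.13, and RA plus TNF arrays 4.18, 3.75, 3.58, 4.18 and 4.65. The groups overlap, and within each the spread was wider than the distance between their means. The change with RA at 40 h was 0.00 ± 0.19 (interval -0.38 to 0.38), so a change as large as the 0.64 of CDKN1A lies outside its interval. With TNF it was -0.23 ± 0.19 (interval -0.61 to 0.15), and with RA plus TNF -0.13 ± 0.19 (interval -0.51 to 0.25). In the time course, the arrays read 4.37 and 4.47 at 2 h, 4.24 and 4.62 at 6 h, and 4.05, 3.98 and 4.35 at 16 h, against 3.91 through 4.31 to 4.66 with vehicle. All of these lay inside the vehicle range. Of the 40 h RA arrays of the time course, 4.27 lay inside it and 4.84 above it, with a change of 0.26 ± 0.21 (adjusted p 0.697).

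CDKN1C, which encodes p57, was near or below the array median. Of its 5 probe sets (chr11:2883218-2885775), 4 did not pass the filter, and these were below the array median on 25 to 33 of the 33 arrays. Without that filter 1 of the 4, 219534_x_at, was called lower with RA plus TNF than with vehicle (-2.45, limma adjusted p 0.0330). The fifth, 213348_at, was below it on 14 arrays. At 40 h it read -3.34, -0.02, -2.81, -0.11 and 0.17 with RA, against -0.03 to 1.12 on vehicle arrays, so 3 of 5 RA arrays lay below all vehicle arrays. The change of -1.64 ± 0.77 did not pass (adjusted p 0.376). With RA plus TNF the arrays read -0.93, 0.16, -2.65, -0.24 and -0.17, a change of -1.18 ± 0.77 (adjusted p 0.343). Arrays of set 1 held the lowest values in all 3 treated groups, and the SE here was 0.77 against 0.17 for CDKN1A.

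CDKN2D, which encodes the INK4 protein p19, lies at chr19:10566460-10568979. Probe set 210240_s_at had moderate levels, and the other, 213586_at, did not pass the filter. At 40 h, vehicle arrays ran from 0.76 through 1.57 to 2.15, and RA arrays read 1.69, -0.75, -1.77, 1.49 and 1.62. The low values were RA replicates 2 and 3, while the other 3 lay inside the vehicle range. TNF arrays read 1.46, 1.37, 0.15, 1.86 and 1.90, and RA plus TNF arrays read 2.12, 1.36, 1.32, 1.95 and 1.60. The change with RA was -0.95 ± 0.41 (adjusted p 0.299). RA plus TNF minus RA was 1.22 ± 0.43 (adjusted p 0.0649) and the interaction was 1.27 ± 0.59 (adjusted p 0.619). In the time course both 2 h arrays (2.37 and 2.31) lay above all 8 vehicle arrays (0.24 to 2.15), with a change of 0.64 ± 0.35 (adjusted p 0.310). The median change of all tested probe sets at 2 h was 0.34. In signal units the 2 h arrays read 125.7 and 109.9, inside the vehicle range of 37.4 to 146.3. CDKN2D was the 1 of 13 member probe sets with an unadjusted interaction p under 0.05. Over all 22749 tested probe sets 1755 had such a p. By limma 0 of 13 passed for the interaction, against 0.286% of all tested probe sets.

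RB1 encodes the founding pocket protein and lies at chr13:48303751-48481890. By probe set 203132_at it rose with RA and TNF together. At 40 h, vehicle arrays ran from 3.75 through 4.51 to 4.74. RA plus TNF arrays read 5.13, 4.50, 4.43, 4.90 and 5.75, of which 3 lay above all vehicle arrays and 2 lay within their range. The change was 0.64 ± 0.18, or 1.56-fold (limma adjusted p 0.0110). It was 0.66 in set 1 and 0.64 in set 2, neither of which passed alone (0.0947 and 0.0842). Without RA plus TNF replicate 5 it was 0.50 (0.0634), and without the set covariate 0.59 (0.174). RA alone gave 0.25 ± 0.18 (adjusted p 0.672) and TNF alone 0.14 ± 0.18 (0.755). In the time course the 6 h arrays read 4.98 and 5.59, both above the 8 vehicle arrays (3.80 to 4.96), with a change of 0.70 ± 0.23 (adjusted p 0.0710). On the scanner software's scale it was 0.29 (0.476). In signal units the 6 h arrays read 807.3 and 912.7, and the 8 vehicle arrays ran from 494.9 to 868.3, so the groups overlap. The second RB1 probe set, 211540_s_at, lay below the array median on 18 arrays, and its change with RA plus TNF was 0.93 ± 0.72 (adjusted p 0.438).

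RBL1 encodes p107, a pocket protein whose level usually follows proliferation, and lies at chr20:36996349-37095997. Its lead probe set, 205296_at, did not pass in any comparison. At 40 h, vehicle arrays ran from 2.59 through 3.04 to 3.32, RA arrays read 2.65, 2.50, 2.98, 3.14 and 3.48, and RA plus TNF arrays read 2.87, 2.13, 2.78, 3.23 and 3.66. TNF arrays read 3.10, 2.49, 2.72, 3.14 and 3.44. In each treated group the 2 highest arrays were those of set 2. The change was 0.01 ± 0.18 (interval -0.37 to 0.38) with RA and -0.01 ± 0.18 (interval -0.38 to 0.37) with RA plus TNF. At 16 h of RA it was -0.28 ± 0.19 (adjusted p 0.434), and its other probe sets gave -0.34 ± 0.22 (1555004_a_at, 0.402) and -1.47 ± 0.66 (1559307_s_at, 0.203).

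RBL2 encodes p130, the pocket protein of resting cells, and lies at chr16:53434471-53491648. Its lead probe set, 212331_at, ran from 3.63 through 4.79 to 5.34 on vehicle arrays at 40 h. It read 4.19, 4.73, 4.63, 5.12 and 5.75 with RA, 4.24, 3.62, 4.01, 4.41 and 4.48 with TNF, and 4.52, 3.35, 3.73, 4.33 and 5.21 with both. The groups overlap, with lower means in both TNF groups (4.15 and 4.23) than with vehicle (4.69) or RA (4.88). RA plus TNF minus RA was -0.66 ± 0.22 by this probe set (adjusted p 0.0516) and -0.55 ± 0.20 by 212332_at (0.0754), which is just outside the threshold for both.

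The RBL2 call depended on the scale and on which probe sets were tested. With the stricter filter on low values RA plus TNF minus RA passed for both (-0.66, adjusted p 0.0280, and -0.55, 0.0494), and with 1 probe set per gene it passed for 212331_at (0.0405). After quantile normalization RA plus TNF minus RA was -0.75 (adjusted p 0.00412) and -0.60 (0.0145) for the 2 RBL2 probe sets. On the scanner software's scale it was -0.74 (0.00499) and -0.63 (0.00912), and after centring on tested probe sets -0.70 (0.00690) and -0.59 (0.0165). On those scales both also passed as lower with RA plus TNF than with vehicle, from -0.58 to -0.47. For TNF against vehicle, 212331_at passed after quantile normalization (-0.52, 0.0441) and on the software's scale (-0.51, 0.0490). The sign was negative on all 4 scales in these 3 comparisons for both probe sets. In the time course 212331_at read 4.79, 4.28 and 4.72 at 16 h, against 4.36 through 5.11 to 5.38 with vehicle, a change of -0.44 ± 0.20 (adjusted p 0.204). Within the array sets, RA plus TNF minus RA was -0.65 in set 1 and -0.67 in set 2 by 212331_at, and -0.23 and -1.02 by 212332_at. The 2 RBL2 probe sets had an r of 0.02 over the 33 arrays, compared with 0.68 for the 2 of BTG1, 0.57 for the 2 of RB1, and 0.64 and 0.27 for RBL1. These are descriptions over arrays that share treatments and array sets.

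BTG1, an antiproliferative gene often high in resting blood cells, lies at chr12:92140278-92145846 and had the highest rise with the combined treatment after CDKN1A among the called members. By probe set 200920_s_at, vehicle arrays at 40 h ran from 4.89 through 5.11 to 6.03. RA arrays read 5.78, 5.71, 5.41, 5.45 and 5.82, TNF arrays 5.88, 5.83, 5.91, 5.64 and 5.48, and RA plus TNF arrays 6.41, 6.44, 6.21, 5.97 and 5.91. All RA and TNF arrays lay above 5 of the 6 vehicle arrays and below vehicle replicate 1 (6.03). All RA plus TNF arrays lay above all RA arrays and, narrowly, all TNF arrays. TNF alone raised it by 0.50 ± 0.16, or 1.41-fold (limma adjusted p 0.0406), the 1 of 13 member probe sets called for TNF, against 8.56% of all. The members' median change there was -0.05, and that of all probe sets 0.01. RA alone gave 0.38 ± 0.16 (adjusted p 0.252).

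RA and TNF together raised BTG1 by 0.94 ± 0.16, or 1.92-fold (limma adjusted p 3.04e-05), and the second probe set, 200921_s_at, by 0.88 ± 0.18 (adjusted p 0.000465). The second read 5.74, 5.42, 5.29, 5.71 and 6.13 with both agents against 3.94 through 4.87 to 5.28 with vehicle, and these groups do not overlap. Within set 1 the rises were 1.02 and 0.81, within set 2 they were 0.82 and 0.97, and both calls were kept without any 1 of the 21 arrays. Members called for RA plus TNF against vehicle were thus CDKN1A, RB1 and both BTG1 probe sets, 4 of 13 (30.8%), against 16.2% of all tested probe sets. These 4 were upward, and on each of the 3 other scales the same comparison had 4 upward calls and 2 downward, the latter both RBL2 probe sets. The members' median change was 0.51, compared with 0.06 for all. Groups lay wholly apart for CDKN1A and the second BTG1 probe set. How many of all probe sets lay wholly apart was not counted, in this or any other comparison.

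RA plus TNF also exceeded RA alone for BTG1, by 0.56 ± 0.16, or 1.47-fold (200920_s_at, limma adjusted p 0.0236), the 1 of 13 called, against 10.2% of all. The second probe set gave 0.52 ± 0.19 (0.0770). The first was 0.72 (0.0516) in set 1 and 0.30 (0.526) in set 2. It lost its call after quantile normalization (0.40, 0.0777), where the second passed (0.39, 0.0447). The second also passed on the scanner software's scale (0.44, 0.0260) and after centring on tested probe sets (0.47, 0.0176). Against TNF alone BTG1 differed by 0.44 ± 0.16 (0.118) and 0.48 ± 0.19 (0.148), and the second probe set passed on the software's scale (0.41, 0.0480) and after centring (0.42, 0.0478). On the deposited scale CDKN1A was the 1 of 13 called for RA plus TNF over TNF, against 6.26% of all tested probe sets. The BTG1 interaction was 0.06 ± 0.23 (interval -0.41 to 0.52, adjusted p 0.986).

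**Figure D3:**
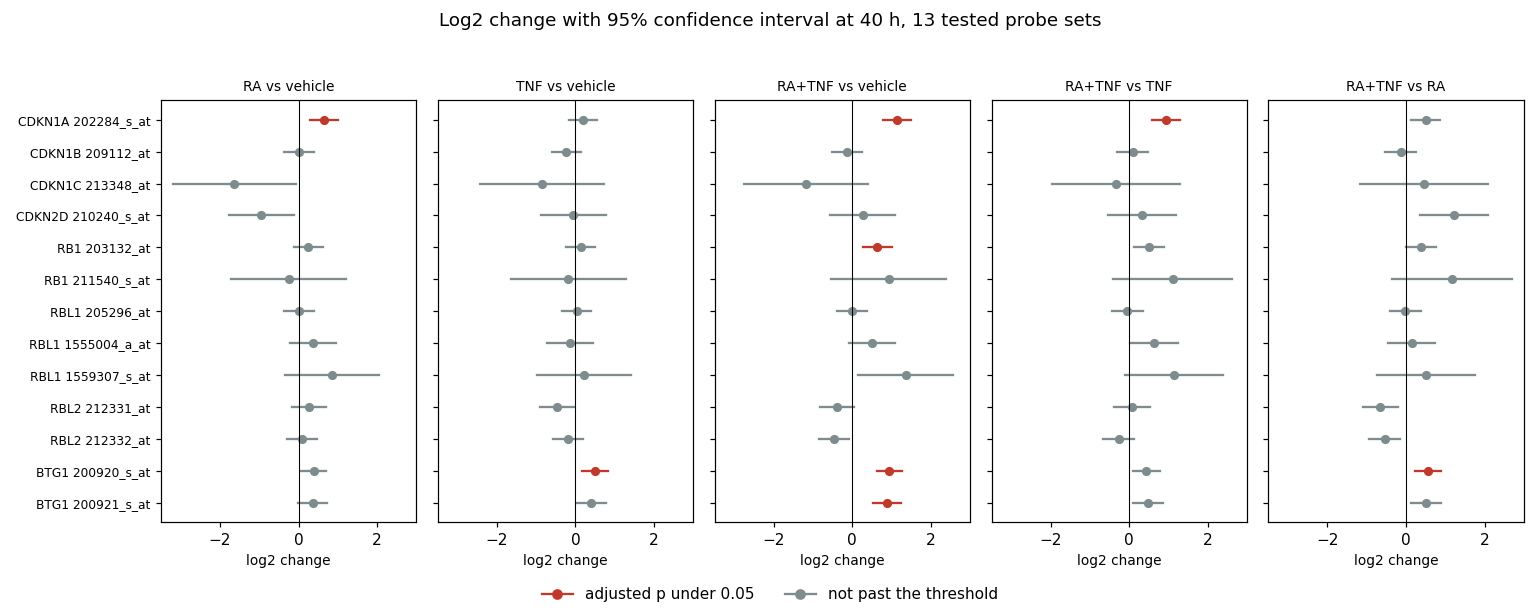
Log2 change with its 95% confidence interval for the 13 tested probe sets in 5 comparisons at 40 h, with red for an adjusted p under 0.05. RA plus TNF against vehicle has 4 red points, CDKN1A (1.14), RB1 (0.64) and BTG1 (0.94 and 0.88), and each other comparison has 1.

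The BTG1 calls for TNF against vehicle and for RA plus TNF over RA did not hold without some single arrays. The TNF call was lost without any 1 of the 5 TNF arrays or of vehicle replicates 2 to 6, with changes from 0.40 to 0.54 and adjusted p from 0.0541 to 0.113. It was also lost within set 1 (0.54, 0.274) and set 2 (0.45, 0.189). The call over RA alone was lost without RA replicate 3 (0.47, 0.0945) or 4 (0.54, 0.0504) or RA plus TNF replicate 1 (0.52, 0.0556) or 2 (0.52, 0.0690). In the time course BTG1 stood at 5.45 and 5.82 at 40 h, above all 8 vehicle arrays (4.70 to 5.16). Its change was 0.61 ± 0.19 (adjusted p 0.0818) and that of the second probe set 0.62 ± 0.20 (0.0954). Both passed on the scanner software's scale (0.45, 0.0320 and 0.46, 0.0402) and after quantile normalization (0.44, 0.0365 and 0.46, 0.0468). At 6 h BTG1 was 0.01 ± 0.19 as deposited (adjusted p 0.965), when the median of all probe sets was 0.39.

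**Figure D4:**
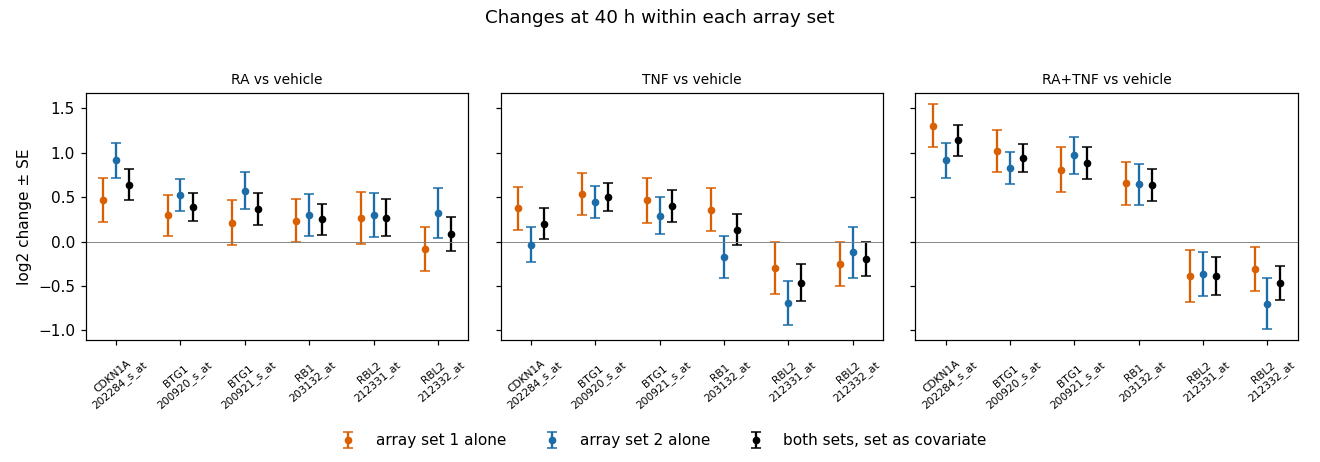
Log2 change ± SE at 40 h for 6 member probe sets within array set 1, within array set 2, and in the fit over both. For RA plus TNF, CDKN1A is 1.31 and 0.91 in the 2 sets and BTG1 (200920_s_at) 1.02 and 0.82, while for RA alone CDKN1A is 0.47 and 0.92.

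At 16 h of RA, 3.4% of all tested probe sets were called lower and 1.92% higher. Against only the vehicle arrays harvested at 16 h, 1.42% were called lower and 1.49% higher, with 8 residual degrees of freedom. The gene lists were not counted in that smaller fit, and the counts below use all 8 vehicle arrays. Of 17 tested E2F target genes of DNA replication, 8 fell and 0 rose, with a median of -0.59 against -0.17 for all probe sets. MCM4 fell by 0.85 ± 0.20 and MCM7 by 0.71 ± 0.18, both subunits of the replicative helicase, and GINS2, part of its holoenzyme, fell by 0.68 ± 0.18 (limma adjusted p 0.00754, 0.0151 and 0.0225). On the 3 other scales 10 to 14 of the 17 fell and 0 rose, against falls of 3.74% to 5.19% over all tested probe sets. Of 16 E2F and DREAM partner genes, 3 fell, namely E2F8 by 1.06 ± 0.18, E2F2 by 0.89 ± 0.23 and MYBL2 by 0.75 ± 0.17, with 3 to 5 on the other scales. Of 16 cyclins and CDKs, 3 fell, namely CCNE2, CCNA2 and CDK6, with 4 or 5 on the other scales. SKP2, a ubiquitin ligase subunit that targets p27, fell by 0.65 ± 0.17, and DTL, which acts on p21, fell by 0.57 ± 0.17, 2 of 11 turnover genes. At the same time the 13 member probe sets had 0 calls and a median of -0.12 as deposited. On each of the 3 other scales CDKN1A was called higher at 16 h (0.70 to 0.72).

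At 40 h of RA in the time course, 0 of the 17 E2F targets passed on the deposited scale, but 6 to 13 fell on the other 3 scales. Over all tested probe sets 0.54% fell as deposited and 3.07% to 3.7% on those scales. In experiment 1 with RA alone, 0 of 17 passed as deposited and 1 or 2 fell on the other scales, and of 15 cyclins and CDKs 0 passed as deposited and 3 fell on each other scale. Falls there made up 0.936% of all tested probe sets as deposited and 2.62% to 2.87% on the other scales. With RA plus TNF against vehicle, 1 of 17 rose as deposited, RRM2 by 0.57 ± 0.18, and on the other scales 1 rose and 1 or 2 fell. RA plus TNF exceeded RA alone for CDC45 (1.00 ± 0.24) and RRM2 (0.60 ± 0.19), 2 of 17, with 3 on each other scale. In the same comparison the cyclins and CDKs had CCND1 at 1.52 ± 0.38, CCNE1 at 0.64 ± 0.20 and CDK4 at 0.55 ± 0.15, 3 rises among 15, and on the other 3 scales 5 rose and 1 or 2 fell. That comparison had 6.28% rises and 3.92% falls over all tested probe sets. Rises were 7.52% to 8.06% and falls 6.93% to 7.99% on the other scales. Against vehicle, RA plus TNF gave 1 rise and 3 falls among these 15, with CDK6 at -0.89 ± 0.16, CCNA1 at -1.35 ± 0.29 and CCND1 at 1.28 ± 0.37. On the other 3 scales 1 or 2 rose and 4 or 5 fell.

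In the BTG and TOB family with its deadenylase partners, 8 genes were tested. Over all tested probe sets, TNF alone gave 5.31% rises and 3.25% falls, and RA plus TNF against vehicle 10.3% and 5.92%. With TNF alone BTG3 rose by 0.96 ± 0.17 (limma adjusted p 0.000165) and TOB1 fell by 0.88 ± 0.18 (0.000910), with 1 rise and 3 falls on each other scale. With RA plus TNF against vehicle BTG3 rose by 1.34 ± 0.17, while TOB1 fell by 0.53 ± 0.18 and CNOT8 fell by 0.59 ± 0.17, and on the other 3 scales 1 of the 8 rose and 4 fell. A further list held genes of the p53 pathway, to which CDKN1A also belongs. TNF alone raised 2 of its 12 tested genes (GADD45A by 0.79 ± 0.19 and SESN2 by 1.39 ± 0.28). It lowered 2 (SESN1 by 0.99 ± 0.20, and TP53INP1), with 5 lowered on each other scale. RA alone raised 1 of 12, the quinone oxidoreductase gene TP53I3, by 2.06 ± 0.26 (limma adjusted p 7.65e-07), and lowered 0, against 2.35% rises and 0.936% falls over all. TP53I3 also rose in the time course, by 2.02 ± 0.25 at 6 h and 2.76 ± 0.25 at 40 h, the same times at which CDKN1A was called, and by 2.11 ± 0.21 at 16 h. Of 12 genes of a list of quiescence regulators and related factors, which also holds MYC and MYB, both known to promote proliferation, RA plus TNF against vehicle lowered 6 and raised 1. Among the falls were MXI1, a MYC antagonist, by 1.64 ± 0.18, the atypical cyclin gene CCNG2 by 1.41 ± 0.24, and MYB by 1.25 ± 0.14. Of the other CDK inhibitors, CDKN2A had low signals (group means of 5.0 to 54.0 units, where array medians ran from 18.9 to 45.2), so no size is given for its lower value at 6 h, which passed as deposited and on 2 of the 3 other scales. CDKN3, a phosphatase, fell by 0.70 ± 0.19 at 40 h in the time course.

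Over the means of the 8 groups in array set 2, the patterns nearest to CDKN1A among 12029 other genes were those of KANSL3 (r 0.981), ARHGAP21 (0.977) and ITGB5 (0.976). Nearest to BTG1 were SLC8A1 (0.993), SFN (0.985) and GRK3 (0.967), and nearest to RB1 were TCEAL9 (0.986), SIRPB2 (0.983) and ABCC1 (0.982). With 8 points and this many genes, high values of r arise readily, and these are given as a description.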

How the data were processed

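The authors' signals were made with GCOS, the Affymetrix scanner software, as the submitters' processing notes say, with the version and settings not given in the sources used here. Deposited values are log2 ratios to the median of each array, as the values themselves show: taking an array's lowest value as 1 unit, 100% of signals under 8 units fell on steps of 0.1, within 0.006, and the trimmed mean was 150.0 to 150.1 units. Centring removes any change in total RNA per cell. Genes were named by the platform annotation: 41091 probe sets have 1 symbol, 1801 several and 11721 none, and 41037 of the first matched RefSeq by gene number. Probe sets of 1 symbol whose mean linear value was at least the median of all probe sets (0.882 and 0.891 of the array median in experiments 1 and 2) were tested, without collapsing probe sets. A gene is led by its probe set of highest mean.

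limma 3.58.1 (R 4.3.3, with version 1.17.8 of data.table; lmFit, eBayes with an intensity trend) was fitted over 21 arrays with the array set as covariate (16 residual degrees of freedom) and over 17 arrays of set 2 (12), with Benjamini-Hochberg adjustment over all tested probe sets per contrast. The code was tested on simulated data. Precision is limited by the number of arrays. The set of members, and the lists, alternatives and naming rules were chosen with earlier results of these data known. Every member probe set was followed, with counts for 8 pathway lists and, of those called, up to 3 genes of smallest adjusted p per list and comparison; the 3 nearest patterns were taken for the 3 members of smallest adjusted p. Same-numbered replicates did not deviate together in experiment 1 (30 pairs, r from -0.06 to 0.07). In experiment 2 the 19 same-numbered pairs had r from -0.07 to 0.12 (median 0.03), with 3 over 0.1. The 98 differently numbered pairs there had r from -0.12 to 0.10 (median -0.01), with 0 over 0.1. No pairing was used. Within the array sets, groupings of wells other than by replicate number were not tested.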

Additional observations from a re-analysis of the deposited data

Results flagged for a closer look

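Of 65 combinations of a tested member probe set and a group of 4 to 10 arrays, 5 had an array set apart by Dixon's test, and chance gives about 1 in 20. BTG1 had the highest such array by 200920_s_at, vehicle replicate 1 at 40 h, which read 6.03 where the next read 5.16. By 200921_s_at vehicle replicate 3 at 40 h read 3.94 where the nearest other read 4.81. CDKN1C (213348_at) read -3.80 on TNF replicate 2, with the nearest other at 0.29. CDKN2D (210240_s_at) read 0.24 on vehicle replicate 1 at 16 h, with the nearest other at 1.69. RBL2 (212332_at) read 2.22 on TNF replicate 5, with the nearest other at 2.97. Their causes were not tested.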

How the results depend on the processing

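No called member change reversed in direction under any alternative. Calls over all tested probe sets moved with the processing too. For RA plus TNF against vehicle they numbered 3688, with 5155 after quantile normalization and 1921 without the array set covariate. For TNF they numbered 1947, with 3442 and 868, and for RA at 40 h 747, with 1412 and 324. Counts of member probe sets called, of 13 where the filter is unchanged, moved as follows, and the cause was not tested. RA at 40 h against vehicle went from 1 to 0 without the intensity trend, without the array set covariate and in set 1 alone. TNF against vehicle went from 1 to 2 after quantile normalization and on the GCOS scale, and to 0 without the low value filter, without the trend, with the replicate block, without the covariate and in either set alone. RA plus TNF against vehicle went from 4 to 6 on the quantile, GCOS and centred scales (both RBL2 probe sets lower), to 5 without the filter (CDKN1C lower) and without the trend (RBL1 1559307_s_at higher), and to 3 with 1 probe set per gene, without the covariate and in either set alone, the last 3 by loss of RB1. RA plus TNF against TNF went from 1 to 2 on the GCOS scale and 3 when centred on tested probe sets. RA plus TNF against RA went from 1 to 3 after quantile normalization, 4 on the GCOS scale and when centred, 3 with the stricter filter, 2 with 1 probe set per gene, 3 with the replicate block, and 0 without the trend, without the covariate and in set 2 alone. RA at 6 h went from 1 to 2 with the stricter filter. On the quantile, GCOS and centred scales RA at 16 h went from 0 to 1 and RA at 40 h in the time course from 1 to 3.

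Leaving out 1 array gave 0 to 2 for RA at 40 h, 0 to 2 for TNF, 3 to 4 for RA plus TNF against vehicle, 1 to 1 against TNF, 0 to 4 against RA, 0 to 0 for the interaction and RA at 2 h, 0 to 2 at 6 h, 0 to 1 at 16 h and 0 to 1 at 40 h in the time course. The replicate block with no array set term kept 9 of 10 called member changes and lost the BTG1 rise with TNF (0.49, limma adjusted p 0.0613). For RA plus TNF against RA it added CDKN2D (1.22, 0.0312) and the second BTG1 probe set (0.52, 0.0477). Using vehicle arrays of 1 harvest time (16 h for RA at 2 h, 6 h and 16 h, and 40 h for RA at 40 h) kept 2 of 2 calls.

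Probe sets near the array median, such as those of CDKN1C, limit what can be seen of low transcripts.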
